A study of Mus musculus with 18 samples.

Results

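The genes described here are 10 that encode adipokines, adiponectin receptors and fatty acid carriers, taken by gene symbol from the 54532 genes of the count table. They are *Adipoq*, *Lep*, *Cfd*, *Rarres2*, *Nampt*, *Angptl4*, *Adipor1*, *Adipor2*, *Fabp4* and *Cd36*. Counts came from poly(A) RNA of the mouse fibroblast line 10T1/2, which can be driven to become adipocytes, in 6 groups of 3 libraries. The groups were WT cells, FOXS1 KO clone 1 and FOXS1 KO clone 2, each either uninduced or stimulated first with TGF-β1 (1 nM, 12 h) and next with DMII (48 h). DMII is an adipogenic cocktail that contains insulin, indomethacin, dexamethasone and 3-isobutyl-1-methylxanthine. TGF-β1 is a profibrotic cytokine that opposes adipogenesis, and FOXS1 is a forkhead transcription factor. Cells were grown past confluence, no group received DMII or TGF-β1 alone, and the effects of the 2 agents and of time in culture cannot be told apart. Each KO group is 1 clone grown from a single edited cell, so a difference between a clone and WT holds both the edit and whatever else that clone carries. Nothing in the labels says that the 3 libraries of a group came from separate experiments, so p-values measure the spread between these libraries, which may be technical.

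Library totals ran from 15576685 to 42005596 counts. *Foxs1* RNA was higher, not lower, in the libraries labelled FOXS1 KO. It stood at 2.23 ± 0.886 CPM (counts scaled to the library total after TMM normalization, given as mean ± SD with n = 3 for every group) in uninduced WT, 25.7 ± 2.04 in clone 1 and 22.6 ± 1.44 in clone 2, and at 2.51 ± 0.641, 54.5 ± 2.06 and 39.9 ± 2.59 CPM in the same order after stimulation. Counts over the whole gene do not show an edit within it. The authors reported a disrupted locus by sequencing of genomic DNA and loss of FOXS1 protein by western blot. The names clone 1 and clone 2 below mean the libraries labelled so. Markers of 10T1/2 cells as fibroblasts were present in every library: the 8 fibroblast genes checked summed to between 33992 and 79246 CPM. The 7 macrophage genes summed to at most 7.07 CPM and the 7 endothelial genes to at most 7.92 CPM.

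Adipokines are proteins that fat tissue secretes. Adiponectin, leptin and adipsin are made mostly by mature adipocytes, while chemerin, the NAD enzyme NAMPT and ANGPTL4 are made by many cell types. Adiponectin acts through ADIPOR1 and ADIPOR2, which raise fatty acid oxidation through ceramidase activity, AMPK and PPARα, and ANGPTL4 blocks lipoprotein lipase, the enzyme that frees fatty acids from circulating triglyceride. Fatty acids then enter cells with the help of the scavenger receptor CD36 and are carried in the cytosol by binding proteins such as FABP4, a classic product of differentiating fat cells.

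The 10 genes did not move as a group. *Angptl4* was far lower in both clones than in WT in both treatments, while stimulated clones held about 3 times the WT level of *Nampt* and *Adipor2*, and *Adipor1* stayed near its WT level. *Fabp4* was higher in both stimulated clones and *Cd36* in clone 1, with much larger values in clone 1. The hallmark adipokines of mature fat were close to absent: *Lep* had no count in any of the 18 libraries, *Cfd* had 3 in all, and *Adipoq* had 156. A differentially expressed gene (DEG) was one with a Benjamini-Hochberg adjusted p under 0.05 in edgeR's quasi-likelihood test and an absolute log2 fold change above 1, and 8 of the 10 genes passed the filter on low counts for that test. In stimulated cells 6 of these 8 were DEGs in clone 1 relative to WT, where 19% of the 14317 genes tested were. They comprised 5 higher (9.42% of all genes) and 1 lower (9.6% of all genes). In clone 2 there were 4 (16.9% of all genes), with 3 higher (7.95% of all genes) and 1 lower (8.94% of all genes). *Cd36* and *Adipoq* passed the filter mainly through 1 group each, the only one in which all 3 libraries were above its cut-off, so these shares are a description. Both clones are set against the same 3 WT libraries in each treatment.

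*Angptl4* (ENSMUSG00000002289, chr17:33773750-33781575, minus strand, GRCm38) encodes a secreted inhibitor of lipoprotein lipase and is a known target of PPAR factors and fasting. The 3 uninduced WT libraries held 1312, 1390 and 2111 raw counts, the 3 of clone 1 held 22, 27 and 35, and the 3 of clone 2 held 74, 32 and 21. Every library of both clones was below every WT library. In CPM the uninduced groups stood at 76.6 ± 3.80 in WT, 1.46 ± 0.343 in clone 1 and 1.43 ± 0.217 in clone 2, so *Angptl4* was 52.2-fold lower in clone 1 (log2 fold change -5.71 ± 0.12 SE, adjusted p = 2.88e-25) and 51.3-fold lower in clone 2 (-5.68 ± 0.12, adjusted p = 6.31e-26). Among the 10059 genes that averaged 5 CPM or more, this was the 44th lowest value in clone 1 and the 56th in clone 2. The 7 endothelial genes were also lower in the uninduced clones, with a sum of at most 1.35 CPM against 5.09 to 7.92 CPM in uninduced WT libraries. In stimulated WT, where *Angptl4* was higher than in uninduced WT, their sum was 0.389 to 0.636 CPM. The part of these genes in the level of *Angptl4* was not tested.

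Stimulation raised *Angptl4* in all 3 genotypes without closing that gap. Stimulated WT libraries held 157, 169 and 156 CPM, those of clone 1 held 9.90, 11.2 and 12.9, and those of clone 2 held 8.52, 9.68 and 10.1. The log2 rise was 1.07 ± 0.08 in WT (adjusted p = 4.16e-13), and the rise was 7.75-fold in clone 1 (adjusted p = 7.41e-17) and 6.30-fold in clone 2 (adjusted p = 4.97e-16). The response of the clones exceeded that of WT by 1.88 on the log2 scale in clone 1 (adjusted p = 3.95e-10) and by 1.59 in clone 2 (adjusted p = 6.13e-09). Even so, *Angptl4* remained 14.2-fold lower than WT in stimulated clone 1 (-3.82 ± 0.09, adjusted p = 8.78e-25) and 17.1-fold lower in stimulated clone 2 (-4.09 ± 0.10, adjusted p = 7.15e-25). From high to low, the order was stimulated WT, uninduced WT, the stimulated clones and the uninduced clones. Within the latter 2 pairs the ranges of clone 1 and clone 2 overlapped. Even stimulated clones therefore held less *Angptl4* RNA than unstimulated WT cells.

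*Nampt* (ENSMUSG00000020572, chr12:32819545-32853349, plus strand) encodes the rate-limiting enzyme of NAD salvage, also secreted as visfatin. It followed another pattern, in which WT cells changed most. WT libraries fell from 79.6, 79.4 and 81.5 CPM uninduced to 27.3, 24.7 and 24.8 CPM stimulated. Clone 1 went from 88.3, 85.9 and 94.0 CPM to 81.0, 89.3 and 95.0, and clone 2 from 111, 113 and 110 CPM to 77.3, 82.5 and 85.7. The stimulated WT libraries were thus below every other library, whereas the groups of stimulated clones, uninduced clone 1 and uninduced WT lay close together with overlapping neighbours. *Nampt* fell 3.14-fold in WT (-1.65 ± 0.07, adjusted p = 3.03e-19). In clone 1 its log2 change was -0.02 ± 0.06 (adjusted p = 0.861), and in clone 2 it was -0.45 ± 0.06 (adjusted p = 2.27e-07), short of the fold threshold. The response differed from that of WT by 1.63 in clone 1 (adjusted p = 3.11e-15) and 1.20 in clone 2 (adjusted p = 3.79e-12) on the log2 scale. Relative to WT, stimulated clone 1 was 3.46-fold higher (1.79 ± 0.07, adjusted p = 3.38e-20) and stimulated clone 2 was 3.20-fold higher (1.68 ± 0.07, adjusted p = 2.54e-19). Uninduced clones were also above all WT libraries, but by only 0.16 ± 0.06 (adjusted p = 0.0293) and 0.47 ± 0.06 (adjusted p = 7.58e-08) on the log2 scale.

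**Figure D1:**
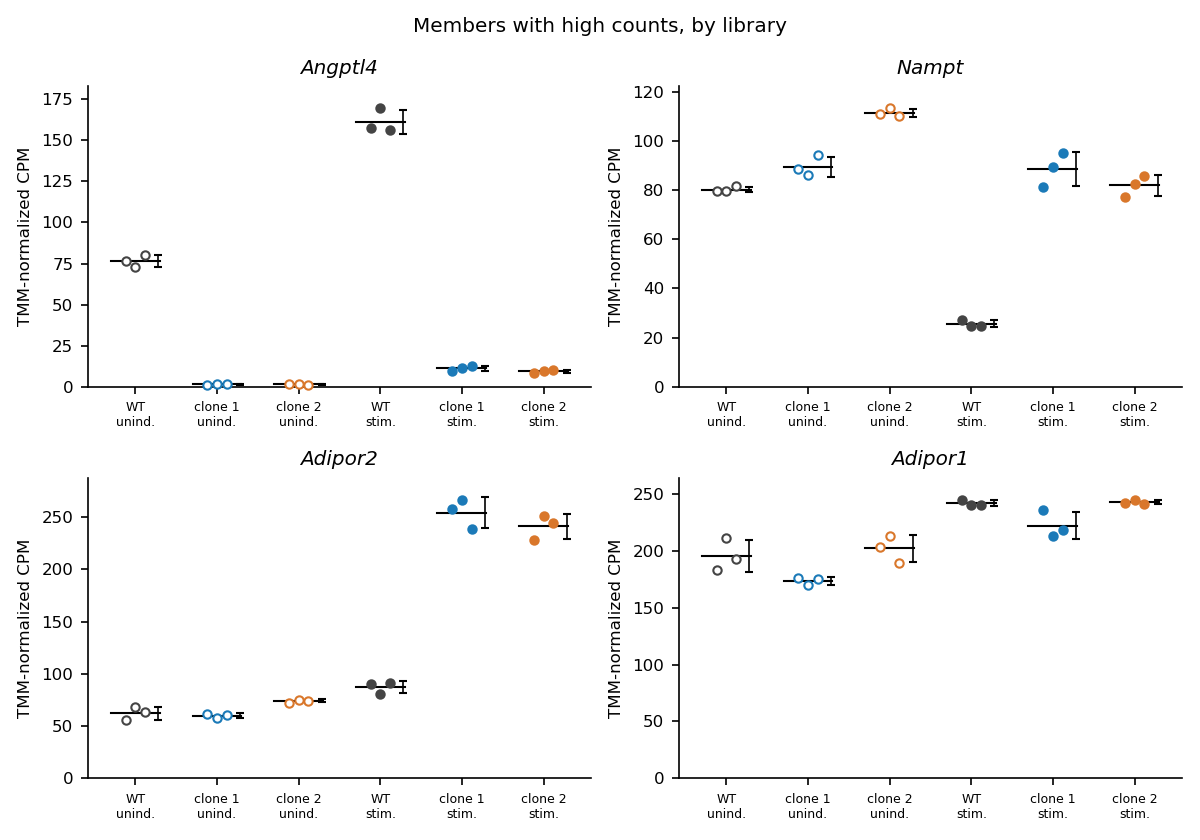
TMM-normalized CPM (vertical axis, linear from 0) of *Angptl4*, *Nampt*, *Adipor2* and *Adipor1* in each library, with open points for uninduced and filled points for stimulated cells, lines for the mean and bars for the SD (n = 3). *Angptl4* is near 0 in both uninduced clones, *Nampt* is lowest in stimulated WT at 24.7 to 27.3 CPM, *Adipor2* is at 228 CPM or more only in the stimulated clones, and *Adipor1* lies in a narrow band.

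The other enzymes around NAD showed no common direction. Of the 12 genes listed for NAD salvage and use, 9 were tested in stimulated cells, with 1 higher and 2 lower in clone 1 (median log2 fold change -0.48, against -0.02 for all genes) and 2 higher and 1 lower in clone 2 (median -0.0001, against -0.01). The shares over all tested genes were 9.42% higher and 9.6% lower in clone 1, and 7.95% and 8.94% in clone 2. *Naprt*, which starts NAD synthesis from nicotinic acid, was 24.0-fold lower in clone 1 (adjusted p = 5.21e-09) and 11.4-fold lower in clone 2 (adjusted p = 2.51e-07). It too was low in uninduced clones, with 486 counts over 3 WT libraries against 5 and 10, and exons of *Eef1d* cover 11.8% of its exonic bases. *Nnmt*, which consumes nicotinamide by methylating it, already differed before stimulation, with 2, 142 and 58 counts in uninduced WT, clone 1 and clone 2. It had no count in stimulated WT, 65 in clone 1 and 5 in clone 2, at least 21.0-fold higher in clone 1 (adjusted p = 3.17e-06) and at least 2.20-fold higher in clone 2 (adjusted p = 0.0321). These bounds set the WT group at a floor of 3 counts, and like all floors here they cover counting error only. The clone 2 call was lost when any 1 WT library (adjusted p = 0.0641 without replicate 1, 0.0693 without replicate 2 and 0.0674 without replicate 3) or clone 2 replicate 3 (0.122) was left out.

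*Adipoq* (ENSMUSG00000022878, chr16:23146536-23158028, plus strand) encodes adiponectin. Its raw counts were few and were highest in uninduced cells. Uninduced WT libraries held 0, 13 and 29 counts, clone 1 held 2, 5 and 4, and clone 2 held 45, 21 and 16. After stimulation WT held 0, 0 and 0, clone 1 held 3, 10 and 2, and clone 2 held 4, 0 and 2. No stimulated group exceeded its own uninduced group by the test. In WT *Adipoq* fell, from 42 counts to 0 over the 3 libraries, at least 14.7-fold (adjusted p = 0.000309), although 1 uninduced WT library was itself at 0. Clone 2 fell 7.69-fold (-2.94 ± 0.89, adjusted p = 0.00621), with no overlap between its groups. The change in clone 1 was 0.16 ± 0.93 on the log2 scale (adjusted p = 0.908).

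The contrast of stimulated clones with WT therefore rests on 0 counts in WT. It gave 15 counts in clone 1, at least 4.85-fold higher (adjusted p = 0.0110), and 6 counts in clone 2, at least 2.64-fold higher (adjusted p = 0.0569). Single libraries decided both: without clone 1 stimulated replicate 2, which held 10 of the 15 counts, the adjusted p was 0.0602. Clone 2 passed without uninduced WT replicate 1 (0.0210) or replicate 3 (0.0499), or without its own stimulated replicate 2 (0.0327), with a log2 fold change of 4.41 to 4.98 from the fit, a value set by the fit's handling of 0. Before stimulation clone 1 was at -1.67 ± 0.83 relative to WT (log2, adjusted p = 0.0942), and clone 2 was at 0.61 ± 0.68 (adjusted p = 0.477). The former passed without uninduced WT replicate 1, the library at 0 (-2.21, adjusted p = 0.00726).

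*Lep* (ENSMUSG00000059201, chr6:29060220-29073877) encodes leptin, the satiety hormone of fat mass, and had 0 counts in all 18 libraries. A total of 3 counts over a group corresponds to between 0.0354 and 0.0603 CPM, so leptin RNA below that level was not detectable at this depth. *Cfd* (ENSMUSG00000061780, chr10:79890853-79892655) encodes adipsin, or complement factor D, which activates the alternative complement pathway. Its 3 counts were 2 in uninduced WT replicate 2 and 1 in uninduced clone 2 replicate 3, and it did not pass the filter. No stimulated library had a count of either gene.

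Partners of these scarce adipokines ranged from no count to abundant. Of 8 genes of leptin signalling, none was higher and 1 was lower than WT in stimulated clone 1 (median 0.32). In stimulated clone 2, 1 was higher and 1 lower (median 0.21). These counts are close to the shares of all genes, which are given below with the complement list. The leptin receptor *Lepr* had 84 counts over the stimulated WT libraries, and the clones had 10 and 18. It was lower in clone 1 (-3.06 ± 0.63, adjusted p = 0.000125) and in clone 2 (-1.79 ± 0.58, adjusted p = 0.0101), and the latter call was lost without stimulated WT replicate 2 (adjusted p = 0.0568). Of 10 genes of the alternative complement pathway, 7 were tested, and in each stimulated clone 3 were higher and 1 lower than in WT (medians 0.63 and 1.11, against -0.02 and -0.01 for all genes). Of all genes 9.42% were higher and 9.6% lower in clone 1, and 7.95% and 8.94% in clone 2. *Cfb*, which encodes the factor that adipsin cleaves, had 2 counts in each of the 3 stimulated groups. It passed the filter through uninduced cells, with 77 counts in uninduced clone 2. *C3*, the central component of complement, stood at 44.4 ± 5.75 CPM in stimulated WT, 2865 ± 206 in clone 1 and 1794 ± 68.0 in clone 2 (log2 fold changes 6.01 ± 0.12 and 5.34 ± 0.12, adjusted p = 1.27e-15 and 4.55e-15). Before stimulation *C3* was at 204 ± 23.2 CPM in WT, 3591 ± 275 in clone 1 and 2700 ± 183 in clone 2. The clones were thus already higher than WT, and the level fell with stimulation in each genotype. *Cd55*, a membrane inhibitor of the C3 convertase, was lower in the stimulated clones than in WT, with 675 counts in stimulated WT, 11 in clone 1 and 0 in clone 2, 61.3-fold lower in clone 1 (adjusted p = 2.11e-10) and at least 170-fold lower in clone 2 (adjusted p = 6.19e-11). Uninduced WT, clone 1 and clone 2 held 11, 10 and 4 counts of *Cd55*, so of the 3 genotypes only WT rose. Properdin, *Cfp*, which stabilizes the convertase, had 22, 55 and 50 counts in the 3 stimulated genotypes (1.22 ± 0.51, adjusted p = 0.0421, and 1.57 ± 0.52, adjusted p = 0.0105). Its call in clone 1 did not hold without any 1 of stimulated WT replicates 1, 2 or 3 (adjusted p = 0.130, 0.0629 and 0.0748), clone 1 stimulated replicate 2 (0.296) or uninduced clone 2 replicates 1 or 3 (0.0534 and 0.0508).

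*Rarres2* (ENSMUSG00000009281, chr6:48569696-48572789, minus strand) encodes chemerin, a chemoattractant and adipokine. It was low in every group, from 10 to 51 counts a library, and exons of *Lrrc61* cover 33.6% of its exonic bases, so that its counts are uncertain. Uninduced WT libraries held 15, 50 and 49 counts and stimulated WT libraries 19, 24 and 10. Clone 1 held 14, 14 and 18 uninduced and 12, 18 and 10 stimulated, and clone 2 held 51, 20 and 20 and then 17, 24 and 12. The groups compared with WT overlapped in every case. *Rarres2* was lower in uninduced clone 1 than in WT (-1.16 ± 0.44, adjusted p = 0.0282) and fell in stimulated WT (-1.15 ± 0.44, adjusted p = 0.0238). The first call was lost without uninduced WT replicate 2 (adjusted p = 0.163) or replicate 3 (0.0558) and without uninduced clone 1 replicate 1 (0.0848) or replicate 2 (0.0779). The second was lost without uninduced WT replicate 2 (0.151) or stimulated WT replicate 3 (0.138). Clone 2 in uninduced cells, at -0.75 ± 0.42 (adjusted p = 0.135), passed without uninduced WT replicate 1 (-1.06, adjusted p = 0.0237). In stimulated cells the values were -0.45 ± 0.47 in clone 1 (adjusted p = 0.428) and 0.41 ± 0.46 in clone 2 (adjusted p = 0.474).

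Of 3 chemerin receptors, *Gpr1* had no count. The signalling receptor *Cmklr1* was far more abundant in reads than its ligand, at 90.5 ± 4.07 CPM in stimulated WT, 81.5 ± 1.45 in clone 1 and 33.9 ± 1.50 in clone 2, and was lower in clone 2 alone by the test. *Ccrl2*, which presents chemerin without signalling, had 4 counts in stimulated WT, 62 in clone 1 and 35 in clone 2 (3.78 ± 0.88, adjusted p = 0.000482, and 3.44 ± 0.91, adjusted p = 0.00194). The medians of these 2 tested genes were 1.81 and 1.01.

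Both adiponectin receptors were abundant although their ligand was scarce. *Adipor1* (ENSMUSG00000026457, chr1:134415378-134433351, plus strand) and *Adipor2* (ENSMUSG00000030168, chr6:119353150-119417704, minus strand) encode related membrane receptors, yet only *Adipor2* was a DEG in any comparison. A promoter of each is shown because the paralogs differed, and 1 of *Nampt* because it shared with *Adipor2* a higher level in both stimulated clones. Each line gives the 250 bases before a RefSeq gene start on GRCm38.p6, read 5′ to 3′ on the gene's strand, with matches to the motifs searched in capitals. The windows are chr1:134415128-134415377 (plus strand) for *Adipor1*, chr6:119388735-119388984 (minus strand) for *Adipor2*, which is a start inside the gene span given above, and chr12:32820085-32820334 (plus strand) for *Nampt*.
Adipor1: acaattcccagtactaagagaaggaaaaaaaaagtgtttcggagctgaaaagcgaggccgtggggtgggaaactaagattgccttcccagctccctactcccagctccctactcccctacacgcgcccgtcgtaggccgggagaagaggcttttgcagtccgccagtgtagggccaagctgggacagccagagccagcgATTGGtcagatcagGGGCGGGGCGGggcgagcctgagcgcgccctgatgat
Adipor2: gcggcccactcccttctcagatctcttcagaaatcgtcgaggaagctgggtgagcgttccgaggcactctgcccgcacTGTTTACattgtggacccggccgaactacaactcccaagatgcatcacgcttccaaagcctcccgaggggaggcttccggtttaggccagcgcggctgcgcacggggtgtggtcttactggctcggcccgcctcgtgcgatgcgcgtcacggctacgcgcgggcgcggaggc
Nampt: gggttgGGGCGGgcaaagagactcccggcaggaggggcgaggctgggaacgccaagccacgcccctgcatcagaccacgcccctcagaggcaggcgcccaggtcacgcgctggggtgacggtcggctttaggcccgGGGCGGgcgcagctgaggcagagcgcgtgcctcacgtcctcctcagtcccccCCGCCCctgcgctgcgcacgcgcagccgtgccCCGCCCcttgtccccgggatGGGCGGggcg
The motifs searched on both strands were the forkhead core TGTTTAC, the CCAAT box CCAAT, the GC box GGGCGG, the TATA box TATAAA, the C/EBP site TTGCNNAA, the direct repeat 1 of nuclear receptors, the cAMP element TGACGTCA and the E box CACGTG. *Adipor2* held 1 forkhead core, found in 3.17% of 32851 RefSeq promoters of this length. The bases just after this *Adipor2* start were not found in a GENCODE M21 transcript of the gene, while those after the *Adipor1* and *Nampt* starts shown were. *Adipor1* held 1 CCAAT box (33.8% of promoters) and 2 GC boxes that overlap (32.7% of promoters). A second RefSeq start of *Adipor1*, at chr1:134415664, has its own window, not printed, with 2 GC boxes, no CCAAT box and 33 CG dinucleotides. The window of *Nampt* held 5 GC boxes. The 3 windows shown were rich in CG dinucleotides, with 15 in *Adipor1*, 27 in *Adipor2* and 27 in *Nampt*, against a median of 6. A match describes these letters only. The promoter table held 7 of the 10 genes, and *Rarres2*, *Angptl4* and *Fabp4* were not matched in it.

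*Adipor2* rose with stimulation in both clones, more than in WT. Libraries of WT went from 55.7, 68.3 and 63.0 CPM to 90.0, 80.9 and 91.2, those of clone 1 from 61.7, 57.5 and 60.9 to 258, 267 and 238, and those of clone 2 from 72.5, 75.2 and 74.4 to 228, 251 and 245. The 6 libraries of stimulated clones stood above the other 12. The response was 4.23-fold in clone 1 (2.08 ± 0.06, adjusted p = 7.58e-22) and 3.26-fold in clone 2 (1.70 ± 0.06, adjusted p = 4.81e-20). In WT it was 1.40-fold (0.48 ± 0.06, adjusted p = 1.44e-07), beyond the spread of the libraries but under the fold threshold. The differences in response were 1.60 in clone 1 (adjusted p = 7.96e-15) and 1.22 in clone 2 (adjusted p = 3.40e-12). Stimulated clones exceeded WT 2.91-fold (1.54 ± 0.06, adjusted p = 4.76e-19) and 2.76-fold (1.47 ± 0.06, adjusted p = 1.97e-18), and their ranges overlapped each other. Uninduced, clone 1 overlapped WT (-0.06 ± 0.07, adjusted p = 0.499), and clone 2 lay above all WT libraries (0.24 ± 0.06, adjusted p = 0.00194).

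*Adipor1* varied little by comparison. Its group means were 196 ± 14.2 CPM in uninduced WT, 174 ± 3.45 in clone 1 and 202 ± 12.0 in clone 2, and 242 ± 2.65, 222 ± 12.1 and 243 ± 1.85 CPM after stimulation. The change with stimulation was 1.24-fold in WT (adjusted p = 8.5e-06), 1.28-fold in clone 1 (adjusted p = 9.93e-07) and 1.20-fold in clone 2 (adjusted p = 7.99e-05), all under the fold threshold. Relative to stimulated WT, clone 1 was 1.09-fold lower (-0.12 ± 0.05, adjusted p = 0.0433) and clone 2 was at 0.00 ± 0.05 (adjusted p = 0.953).

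The balance of the receptors therefore shifted in the stimulated clones. Per kilobase of gene length, *Adipor1* was at 48.1 ± 0.528 CPM per kb and *Adipor2* at 14.6 ± 0.942 in stimulated WT, against 44.2 ± 2.40 and 42.5 ± 2.43 in clone 1 and 48.3 ± 0.368 and 40.3 ± 1.99 in clone 2. The ratio of *Adipor2* to *Adipor1*, each per length, was 0.268 ± 0.0100 in uninduced WT, 0.291 ± 0.00525 in uninduced clone 1, 0.309 ± 0.0188 in uninduced clone 2 and 0.304 ± 0.0184 in stimulated WT. It reached 0.964 ± 0.0776 in stimulated clone 1 and 0.836 ± 0.0378 in stimulated clone 2. On the log2 scale the stimulated clones exceeded WT by 1.67 and 1.46, with no overlap, and an exact two-sided permutation test gave p = 0.1 in each, the smallest that 3 against 3 libraries allow. The uninduced clones exceeded WT by 0.12 and 0.20, with the same p. Of the 11 genes listed for adiponectin signalling, 10 were tested, with 1 higher and 1 lower in stimulated clone 1 (median 0.30) and 1 higher and none lower in clone 2 (median 0.40). The shares over all tested genes were 9.42% higher and 9.6% lower in clone 1, and 7.95% and 8.94% in clone 2. The all-gene medians were -0.02 and -0.01. None of the listed genes was called in both clones, and the 3 most abundant were *Acaca*, *Stk11* and *Prkaa1*. The acetyl-CoA carboxylase gene *Acaca* was at 0.96 ± 0.07 (log2, clone 1) and 1.32 ± 0.07 (clone 2). *Stk11*, the upstream kinase of AMPK, had -0.32 ± 0.05 and 0.24 ± 0.05, and *Prkaa1*, a catalytic subunit of AMPK, had 0.58 ± 0.07 and 0.24 ± 0.07.

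**Figure D2:**
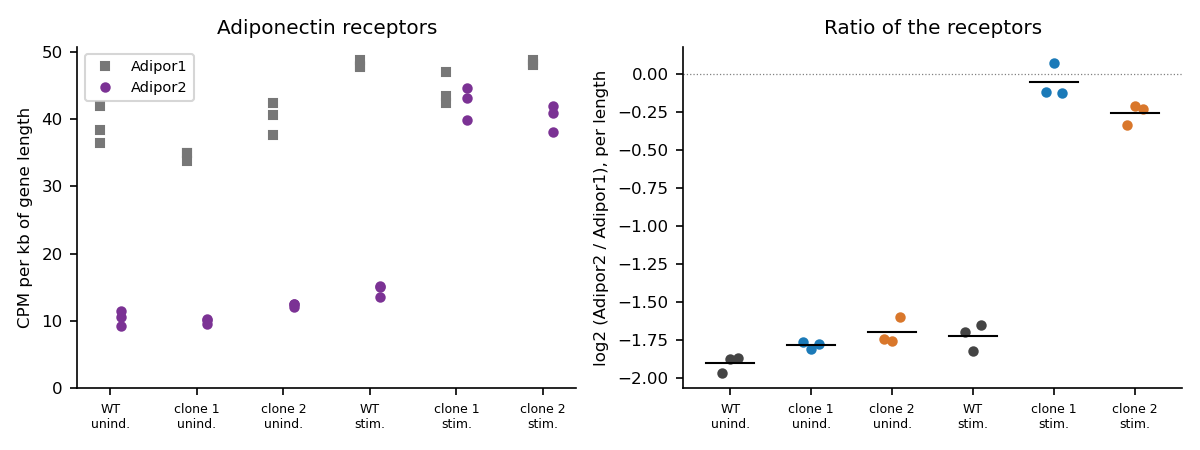
Left, CPM per kb of gene length (vertical axis) of *Adipor1* (squares) and *Adipor2* (circles) in each library by group; right, log2 of their ratio per length in each library, with lines for the means. The ratio averages 0.964 in stimulated clone 1 and 0.836 in stimulated clone 2 and lies near 0.3 in the other groups.

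*Fabp4* (ENSMUSG00000062515, chr3:10204088-10208576, minus strand) was low in all uninduced cells and rose in the stimulated clones to unequal levels. Uninduced libraries held 33, 10 and 24 counts in WT, 15, 18 and 15 in clone 1 and 57, 25 and 20 in clone 2. Stimulated libraries held 6, 13 and 23 counts in WT, 307, 679 and 437 in clone 1 and 70, 53 and 35 in clone 2. In CPM the stimulated groups were 0.631 ± 0.377, 20.4 ± 4.37 and 3.16 ± 0.945, with no overlap among the 3. *Fabp4* was 31.9-fold higher than WT in clone 1 (4.99 ± 0.33, adjusted p = 4.26e-13) and 4.94-fold higher in clone 2 (2.30 ± 0.37, adjusted p = 6.29e-06), and clone 1 exceeded clone 2 by 2.69 on the log2 scale (adjusted p = 5.98e-09). The response was 24.3-fold in clone 1 (adjusted p = 1.76e-12) and 2.65-fold in clone 2 (adjusted p = 0.00061). In WT the log2 change was -0.77 ± 0.42 (adjusted p = 0.118), which passed as a fall without uninduced WT replicate 2 (-1.07, adjusted p = 0.0255) or stimulated WT replicate 3 (-1.29, adjusted p = 0.0234). The response differed from that of WT by 5.37 in clone 1 (adjusted p = 6.84e-09) and 2.17 in clone 2 (adjusted p = 0.0022). Uninduced clones and WT overlapped, at -0.38 ± 0.41 (adjusted p = 0.461) and 0.13 ± 0.37 (adjusted p = 0.788). The length listed for this gene, 4489 bases, equals its whole genomic span, introns included, so its level per kilobase is a low estimate.

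*Cd36* (ENSMUSG00000002944, chr5:17781690-17888801, minus strand) had 80 counts in all, and none in any of the 6 WT libraries. Stimulated clone 1 held 17, 31 and 13 counts and stimulated clone 2 held 1, 3 and 1. Uninduced clone 1 held 0, 0 and 9, and uninduced clone 2 held 5, 0 and 0. In stimulated cells clone 1 was at least 19.7-fold higher than WT (adjusted p = 0.000238) and clone 2 at least 2.20-fold higher (adjusted p = 0.0990). Clone 1 exceeded clone 2 by 3.06 on the log2 scale (adjusted p = 0.0144), a call lost without clone 1 stimulated replicate 2 (0.0581) or clone 2 stimulated replicates 1 (0.0752) or 3 (0.0710). Within clone 1 the rise was 5.49-fold (adjusted p = 0.0243). It was not called without uninduced replicates 1 (0.124) or 2 (0.123) or without stimulated replicates 1 (0.0536) or 2 (0.0899). The call in uninduced clone 1 (at least 3.26-fold higher than WT, adjusted p = 0.0467) rested on the 9 counts of replicate 3, without which both groups are at 0, and it was lost in 10 of the 18 fits that left out 1 library. As WT had no count in either treatment, a difference in response from WT could not be estimated.

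**Figure D3:**
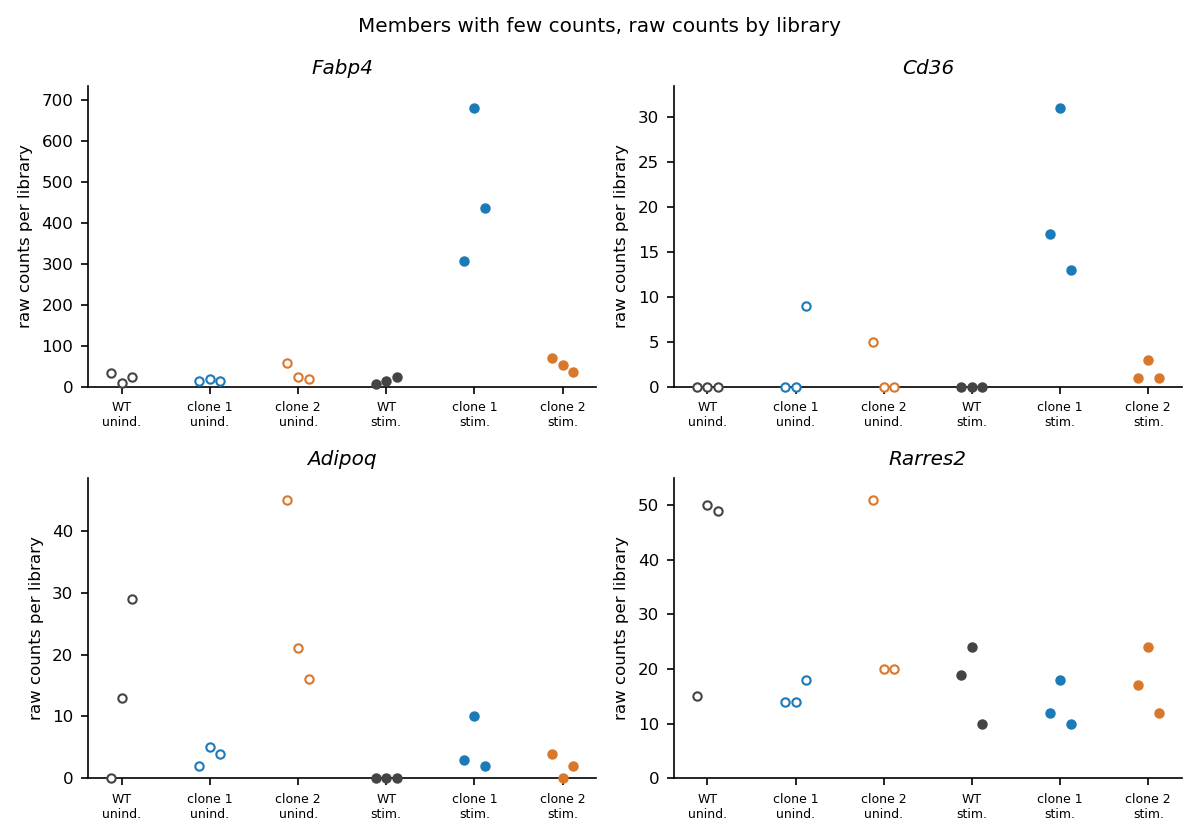
Raw counts (vertical axis) of *Fabp4*, *Cd36*, *Adipoq* and *Rarres2* in each of the 18 libraries by group, open points uninduced and filled points stimulated; library totals differ, so heights compare only roughly. *Fabp4* and *Cd36* stand out in stimulated clone 1, up to 679 and 31 counts, and *Adipoq* is highest in an uninduced clone 2 library at 45.

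Some markers of mature adipocytes were also higher in the stimulated clones. The 8 mature adipocyte markers, a list that holds none of the 10 genes, summed to between 5.87 and 8.26 CPM in stimulated WT. In the stimulated clones the sums were 41.6 to 49.0 for clone 1 and 14.3 to 19.5 for clone 2, against 15.1 to 19.5 in uninduced libraries. Most of these sums was *Lipe*, with 798 of the 831 counts in stimulated clone 2. Only 3 of the 8 passed the filter, of which 3 were higher in clone 1 (9.42% of all genes) and 2 in clone 2 (7.95%), and in the stimulated groups 5 had no count in WT, 2 in clone 1 and 5 in clone 2. Perilipin, *Plin1*, the coat protein of lipid droplets, had 538 counts in stimulated clone 1, 31 in clone 2 and 0 in WT, at least 174-fold higher in clone 1 (adjusted p = 6.04e-10) and at least 13.7-fold higher in clone 2 (adjusted p = 0.000121). Hormone-sensitive lipase, *Lipe*, was 4.38-fold higher in clone 1 (adjusted p = 7.55e-16) and 2.38-fold higher in clone 2 (adjusted p = 4.20e-10), and another gene covers 15.6% of its exonic bases. *Cidec*, another lipid droplet protein gene, had 519 counts in stimulated clone 1 (6.83 ± 0.93, adjusted p = 4.81e-06) but 2 in clone 2 and 4 in WT. *Plin1* and *Cidec* were highest in stimulated clone 1 and passed the filter mainly through it. The share of tested markers called higher in clone 1 is therefore a description. In bulk RNA more adipocytes and more RNA per cell cannot be told apart, and the part that the number of differentiating cells has in the carriers' levels was not tested.

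Among 21 further genes of fatty acid binding and transport, 11 were tested, with 2 higher and 2 lower in stimulated clone 1 (median 0.24) and 2 higher and 4 lower in clone 2 (median 0.05). Over all genes 9.42% were higher and 9.6% lower in clone 1, and 7.95% and 8.94% in clone 2. The 2 that were higher than in WT were the same in both clones: *Acsl1*, which activates long-chain fatty acids, was 11.2-fold higher in clone 1 (adjusted p = 4.98e-26) and 2.76-fold higher in clone 2 (adjusted p = 1.26e-16), and caveolin-1, *Cav1*, was 3.89-fold (adjusted p = 1.19e-17) and 2.57-fold higher (adjusted p = 2.17e-13). The transporter genes *Slc27a1* and *Slc27a3* were lower. *Slc27a1* was 24.8-fold lower in clone 1 (adjusted p = 1.03e-09) and 46.6-fold lower in clone 2 (adjusted p = 1.04e-09), and *Slc27a3* was 78.8-fold (adjusted p = 2.16e-16) and 99.9-fold lower (adjusted p = 1.23e-15). Both were also low in uninduced clones, where *Slc27a3* had 13 and 33 counts against 1958 in WT. *Fabp5*, the paralog of *Fabp4* found in many cells, stood at 12.7 ± 0.672 CPM in stimulated WT, 21.7 ± 3.35 in clone 1 and 6.05 ± 1.00 in clone 2. Within each clone this list thus held genes called in both directions.

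The family and target of ANGPTL4 were mixed as well. Of 12 genes of the angiopoietin-like family and lipoprotein lipase, 8 were tested, with 2 higher and 2 lower in stimulated clone 1 (median -0.42) and 2 higher and 1 lower in clone 2 (median -0.16). *Angptl7* had 12 counts in stimulated WT, 93 in clone 1 and 173 in clone 2 (2.86 ± 0.66, adjusted p = 0.000479, and 4.21 ± 0.65, adjusted p = 2.91e-06). Endothelial lipase, *Lipg*, had 0, 15 and 10 counts in these groups, at least 4.85-fold (adjusted p = 0.000233) and at least 4.41-fold higher (adjusted p = 0.000663), after 192, 309 and 842 counts in the uninduced groups. *Lpl*, the enzyme that ANGPTL4 inhibits, had 1947 counts in uninduced WT, 16 in clone 1 and 456 in clone 2, and 262, 14 and 155 counts after stimulation. Enzyme and inhibitor were thus both low in clone 1, in both treatments. Both were also lower than in WT in uninduced clone 2, the group with the largest total of counts. Of 14 other adipokine genes, 7 were tested, and 3 were higher in stimulated clone 1 (median 0.36) and 4 in clone 2 (median 1.34), with none lower in either. For both of these lists, the shares of all genes called higher were 9.42% and 7.95%, and those called lower were 9.6% and 8.94%. The all-gene medians were -0.02 and -0.01. *Lcn2*, a secreted binder of siderophores, stood at 4.35 ± 0.573 CPM in stimulated WT, 1719 ± 126 in clone 1 and 1491 ± 37.1 in clone 2 (adjusted p = 1.19e-26 and 1.77e-26). *Il6* was 2.32-fold (adjusted p = 1.18e-08) and 3.48-fold higher (adjusted p = 3.74e-12) and *Ccl2* was 3.60-fold (adjusted p = 8.21e-14) and 4.19-fold higher (adjusted p = 7.84e-15), both inflammatory cytokines that fat tissue releases.

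**Figure D4:**
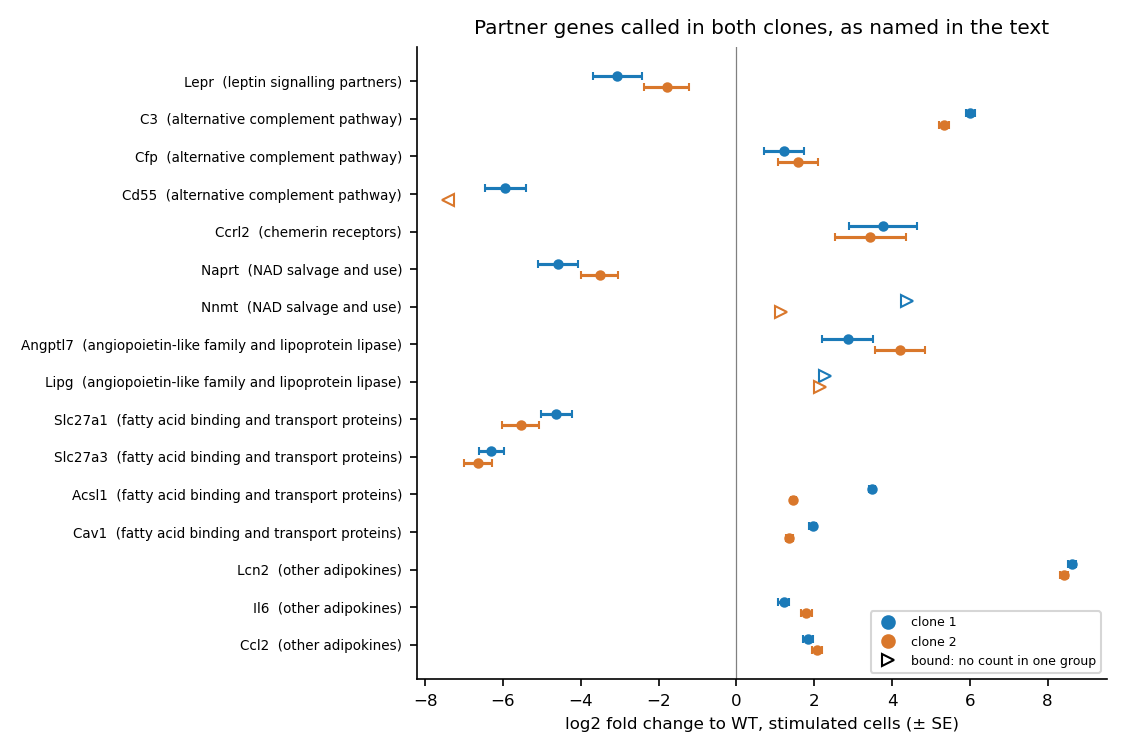
Log2 fold change from WT in stimulated cells (horizontal axis, bars for the SE of the edgeR fit) of the partner genes named in the text, marker lists left out, that were DEGs in the same direction in both clones, with their list in parentheses; open triangles are bounds where a group had no count, drawn at a floor of 3 counts. Of the genes drawn, *Lcn2* and *C3* lie farthest to the right, and *Cd55*, *Slc27a3* and *Slc27a1* farthest to the left.

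Before stimulation 3 of the 8 tested genes were DEGs in clone 1 (*Angptl4*, *Rarres2* and *Cd36*, against 15.1% of all genes) and 1 in clone 2 (*Angptl4*, against 15.1% of all genes), the latter a share close to that of all genes. The count in clone 1 was 1 without uninduced WT replicate 2 or 3, and that in clone 2 was 2 without uninduced WT replicate 1. Stimulation changed 4 of the 8 in each genotype, with 1 up and 3 down in WT (19.9% of all genes were DEGs), 4 up in clone 1 (16.7%) and 3 up and 1 down in clone 2 (17.7%). *Angptl4* rose in all 3, *Adipor2* and *Fabp4* in both clones, and *Cd36* in clone 1. *Adipoq* fell in WT and clone 2, and *Nampt* and *Rarres2* fell in WT. The response itself differed from that of WT for 5 of the 8 in clone 1 (8.81% of all genes) and 4 in clone 2 (7.85% of all genes), each with a more positive response in the clone. These were *Angptl4*, *Nampt*, *Adipor2* and *Fabp4* in both, and *Adipoq* in clone 1, where the value comes from WT counts that reached 0. Between the clones, 1 of the 8 differed in uninduced cells (8.67% of all genes), *Adipoq*, lower in clone 1 (-2.28, adjusted p = 0.0232), and 2 in stimulated cells (9.98% of all genes), *Fabp4* and *Cd36*. The uninduced call was lost without clone 1 replicate 1 (adjusted p = 0.108) or 3 (0.0650) or clone 2 replicate 1 (0.0688) or 2 (0.0503). Uninduced clone 2 was the only group with all 3 *Adipoq* libraries above the filter's cut-off, and stimulated clone 1 the only one for *Cd36*. Counts of DEGs that include these genes are therefore a description.

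**Figure D5:**
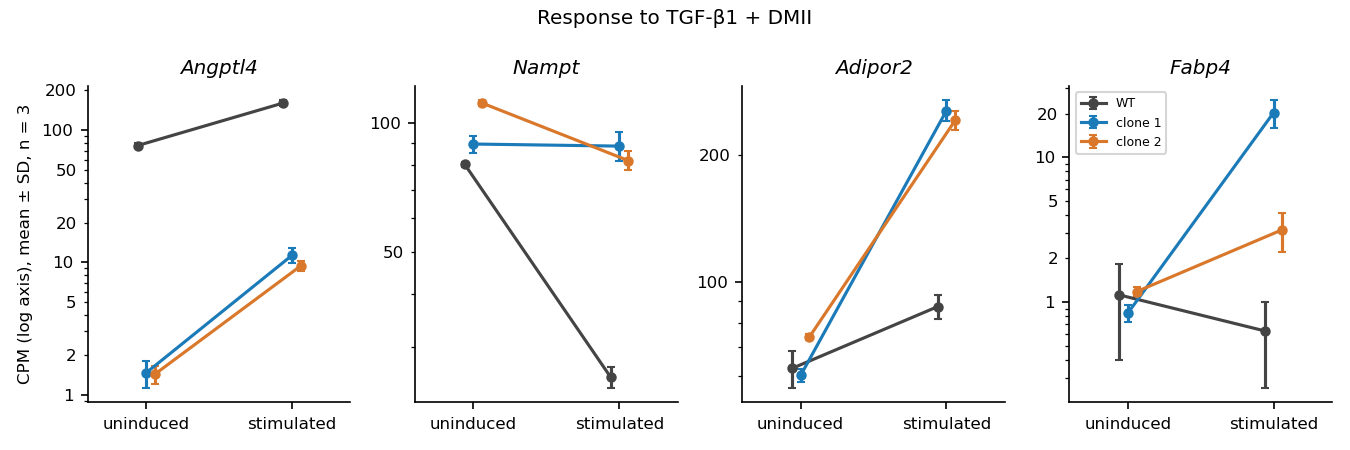
Mean CPM ± SD (vertical log axis, n = 3) of *Angptl4*, *Nampt*, *Adipor2* and *Fabp4* in uninduced and stimulated cells, with a line for each genotype. *Angptl4* rises in all 3 from very different starting levels, *Nampt* falls 3.14-fold in WT, and *Adipor2* and *Fabp4* part from WT after stimulation.

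Read per length, the order of the genes in stimulated WT was *Angptl4* at 49.0 CPM per kb, *Adipor1* at 48.1, *Adipor2* at 14.6 and *Nampt* at 5.06, with the rest at or under 0.303. The first 2 did not differ beyond their spread, and their order depends on the length used: the table lists 3286 bases for *Angptl4*, while GENCODE M21 has 3541 exonic bases, with which it stood at 45.5 CPM per kb, below *Adipor1*. In stimulated clone 1 it was *Adipor1* (44.2 CPM per kb), *Adipor2* (42.5), *Nampt* (17.5), *Fabp4* (4.55) and *Angptl4* (3.45). *Angptl4* was thus level with or close to *Adipor1* in WT. By the listed lengths *Angptl4* overlapped the fatty acid carrier *Fabp4* in clone 1 and was above *Fabp4* in clone 2 (2.87 against 0.705 CPM per kb). The length used for *Fabp4* includes introns, so its values are low estimates. Its place relative to *Angptl4* is therefore uncertain in both clones.

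Genes with the most similar pattern were sought by Pearson's r of log2 CPM over the 18 libraries among genes that averaged 5 CPM or more, a description in which the 6 group means set much of r. *Angptl4* was most like the sulfatase gene *Sulf1* (0.985) and *Pdgfra* (0.982), the fibroblast receptor gene, which was itself 2.35-fold lower in stimulated clone 1 and 2.43-fold lower in clone 2. *Nampt* was most like *Ppp1r2* (0.990) and *Lgals3* (0.983), and *Adipor2* most like *Tsc22d1* (0.990) and *Rgs2* (0.987). *Adipor1* was nearest to *Rplp0* (0.961) and *Srp9* (0.960), *Fabp4* to *Zhx3* (0.943) and *Tob2* (0.936), and *Cd36* to the fatty acid metabolism genes *Acsl1* (0.879) and *Acadm* (0.875). The low counts of *Adipoq* (nearest *Aktip*, 0.875, and *Xpc*, 0.847) and *Rarres2* (nearest *Snrk*, 0.850) make theirs of little weight.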

How the data were processed

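Bulk poly(A) RNA of 18 libraries of 10T1/2 cells was sequenced by the authors as 150 bp paired-end reads, and mapped with HISAT2 to GRCm38. The values are raw counts per gene as deposited by the authors, without normalization. Which program, annotation release and strand setting the counting used is not stated in the sources used. Column names matched the titles of the labels, and 0 columns belonged to other samples.

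The tests were run with edgeR 4.0.16 and limma 3.58.1 (R 4.3.3), and DESeq2 1.42.0 served as an alternative. Figures were drawn with Python 3.11.15 and matplotlib 3.10.9. Of 54532 genes, filterByExpr (minimum count 10) kept 14317. Libraries were scaled by TMM, and 1 model of 6 group means was fitted (glmQLFit, robust) and tested with glmQLFTest. All adjusted p-values are Benjamini-Hochberg values of this edgeR test over all genes tested unless another tool is named. DEGs had an absolute log2 fold change above 1 and an adjusted p below 0.05. Where a group had no count, folds were bounded by a floor of 3 counts over that group. Levels between genes were compared as CPM per kb of the listed gene length, and again with GENCODE lengths, added after seeing the data. Annotation came from GENCODE M21 and promoters from RefSeq (GRCm38.p6). The procedure was tested on simulated data. The receptor ratio was tested with an exact permutation test.

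The members and gene lists were chosen with earlier results of these data known. The text names every member, those list genes that were DEGs in the same direction in both stimulated clones (otherwise the 3 with the highest mean CPM), *Foxs1*, and the 2 most similar genes of each member, except items that are not reported here. *Cmklr1*, *Gpr1*, *Cfb*, *Cidec*, *Fabp5*, *Lpl* and the neighbours of members were named after their values were seen. Alternatives were DESeq2, its size factors, no filter, a filter of 1 CPM in 3 libraries, only the groups compared, a replicate block, no fold threshold and each library left out in turn.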

Additional observations from a re-analysis of the deposited data

Results flagged for a closer look

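The response to stimulation differed between a clone and WT by the interaction term of the edgeR model, over the 14317 genes tested, in 9 cases. In clone 1 the differences on the log2 scale, clone minus WT, were 1.88 for *Angptl4*, 1.63 for *Nampt*, 1.60 for *Adipor2*, 5.37 for *Fabp4* and 6.92 for *Adipoq*. In clone 2 they were 1.59 for *Angptl4*, 1.20 for *Nampt*, 1.22 for *Adipor2* and 2.17 for *Fabp4*. For *Nampt* the level fell in WT, for *Adipor2* the clones rose more than WT, and *Angptl4*, which started 52.2-fold and 51.3-fold lower in the clones, rose by a larger factor there. The value of *Adipoq* depends on how the fit handles the 0 counts of stimulated WT, so its size is not a measure of the effect.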

How the results depend on the processing

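The calls of *Angptl4*, *Nampt*, *Adipor2* and *Fabp4* in both stimulated clones relative to WT, and of *Angptl4* in the uninduced clones, held under DESeq2, its size factors, no filter, a filter of 1 CPM in 3 libraries, only the groups compared, a replicate block and every library left out in turn. Dropping the fold threshold keeps the main fit and can only add calls. Same-numbered libraries showed no clear shared effect: their deviations from group means correlated at -0.189 to 0.135 over 45 pairs (median -0.004). These values cannot show whether such libraries were handled together, so the block is only an alternative. Under the block, members called in uninduced clone 1 went from 3 to 2 (*Cd36*, adjusted p = 0.0684) and *Cfp* was lost in stimulated clone 1 (0.0522). Counts over all genes stayed within 1.5 times (2698 against 2722 in stimulated clone 1). DESeq2 called 0 members between uninduced clones and 1 between stimulated clones (edgeR 1 and 2), with *Adipoq* at an adjusted p of 0.0564 and *Cd36* at 0.0949, and did not call *Cd36* in uninduced clone 1 relative to WT (0.0658), the *Cd36* response of clone 1 (0.174) or *Tek* in clone 2 (0.0617), but called *Adipoq* in stimulated clone 2 (3.80, adjusted p = 0.0370), as did no filter (0.0290). No filter lost *Rarres2* in uninduced clone 1 (0.0600) and in the WT response (0.0579), *Cfp* in stimulated clone 1 (0.0881) and *Tek* in stimulated clone 2 (0.0694). The CPM filter left 1 member between stimulated clones. Only the groups compared gave 1 in uninduced clone 1 and 2 in the WT response (main 3 and 4), with *Rarres2* at 0.0757 and 0.0715. Without a fold threshold, members called were 5 and 3 in uninduced clones 1 and 2 and 4 and 4 between the uninduced and stimulated clones, and genes called overall 7657, 7619, 8436 and 8011 (each clone against WT, uninduced then stimulated), 8693, 7803 and 7982 (responses of WT, clone 1 and clone 2), 4526 and 4463 (differences in response) and 6039 and 6500 (between clones), against 2155, 2162, 2722, 2418, 2849, 2391, 2528, 1261, 1124, 1241 and 1429. Without division by length the log2 receptor ratio was -1.65, -1.53 and -1.45 in uninduced WT, clone 1 and clone 2 and -1.47, 0.19 and -0.0090 in the stimulated groups, against -1.90, -1.78, -1.70, -1.72, -0.06 and -0.26. Values near 0 that changed sign were *Adipor1* in stimulated clone 2 (-0.021, no filter), the *Nampt* response of clone 1 (0.00052, no filter), the *Rarres2* response of clone 2 (-0.011, no filter; -0.035, block) and *Angptl4* between uninduced clones (0.0041, only the groups compared). With 1 library left out, members called ranged from 1 to 3 in uninduced clone 1, 1 to 2 in clone 2, 0 to 1 between uninduced and 1 to 2 between stimulated clones, and the log2 values that changed sign ranged over -0.13 to 0.013 (*Adipor2*) and -0.69 to 0.17 (*Fabp4*) in uninduced clone 1, -0.17 to 0.68 (*Fabp4*) in uninduced clone 2, -0.0027 to 0.014 (*Adipor1*) in stimulated clone 2, -0.60 to 0.53 (*Adipoq*) and -0.043 to 0.056 (*Nampt*) for the clone 1 response, -0.33 to 0.25 (*Rarres2*) for the clone 2 response, -0.0091 to 0.095 (*Adipor1*) for the difference in response of clone 1, and -0.21 to 0.13 (*Angptl4*) and -3.37 to 4.71 (*Cd36*) between uninduced clones. The cause of these changes was not tested, and depth limits every statement on *Adipoq*, *Cd36*, *Rarres2*, *Cfd* and *Lep*.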

Other observations

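The genes next to the members were looked at after the data had been seen. Within 100 kb of *Angptl4* 9 other genes were tested, and their median log2 fold changes from WT were 0.14 and 0.03 in uninduced clones 1 and 2 and 0.56 and -0.06 in the stimulated clones. The 1 tested neighbour of *Nampt*, *Gdap10*, was at 4.91 and 5.29 in the stimulated clones and at -0.20 and -0.13 in the uninduced ones. *Wnt5b*, the nearest tested gene to *Adipor2*, went the other way from it, at -4.93 and -5.15 in the stimulated and -3.72 and -3.99 in the uninduced clones. *Sema3c*, the 1 tested neighbour of *Cd36*, was at 2.76 and 2.41 in the stimulated clones and at 2.38 and 1.15 in the uninduced ones. *Lyz2*, a macrophage marker, had 1 count in stimulated WT, 20 in clone 1 and 14 in clone 2, after 45, 321 and 391 in the uninduced groups. Of the endothelial genes, *Tek* passed the filter and was lower in stimulated clone 1 (-2.91, adjusted p = 0.00428) and clone 2 (-1.999, adjusted p = 0.0384). The clone 2 call was lost without stimulated WT replicate 1 (0.0570) or 2 (0.124) and without clone 2 stimulated replicate 1 (0.0938) or 2 (0.141).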
